A study of Mus musculus with 20 samples.

Results

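Whole lungs of mice labelled Alox15 knockout were compared with whole lungs of wild-type mice, all given saline and no allergen. The comparison rests on 10 RNA sequencing libraries, 5 labelled knockout (KO_saline) and 5 labelled wild type (WT_saline), of 20 in the series. All came from female mice of strain C57Bl6, and the other 10 libraries came from wild-type (WT_HDM) and knockout-labelled (KO_HDM) mice that received intranasal house dust mite extract daily for 14 days. The labels call the replicates biological, and whether the groups were littermates is not given in the sources used here, nor are the ages, the allele or the time of day at which tissue was taken. Of 24054 genes in the table, 16193 had enough counts to be tested.

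The enzyme made from Alox15 adds oxygen to arachidonic, linoleic and related fatty acids. In blood-forming tissue the same enzyme is known for its part in the breakdown of mitochondria in maturing red blood cells. Lung is among the most heavily perfused organs, so its RNA includes that of blood in its vessels, and young red cells that have lost their nucleus still hold RNA for globins and for proteins of their membrane. Lung cells also run a circadian clock, in which the activators Arntl, Clock and Npas2 drive the genes of their own repressors, and in which the output factor Dbp swings widely over the day.

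Under saline, 147 of 16193 genes (0.908%) differed between the labels at an adjusted p under 0.05, which is what "called" means below. Of these, 96 (0.593% of genes tested) were higher and 51 (0.315%) were lower in the libraries labelled knockout. The log2 fold change was 1 or more in size at 80 called genes, 52 higher and 28 lower. Genes of red blood cells made up 32 of the 96 that were higher, and clock genes accounted for another 6 of those and for 3 of those that were lower. Alox15 itself was higher in the libraries labelled knockout. Dropping a library moved the number of lower genes most: it was 31 without WT_saline 1, 86 without WT_saline 5, 32 without KO_saline 2 and 30 without KO_saline 3.

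**Figure D1:**
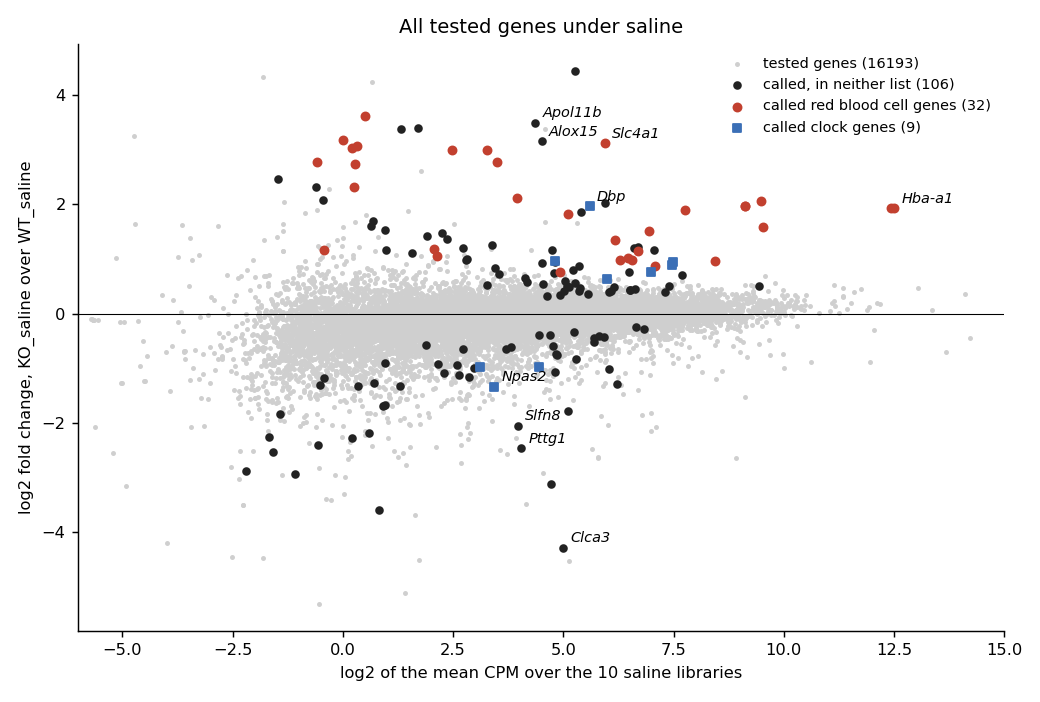
Log2 fold change of KO_saline over WT_saline (vertical axis) against the log2 of the mean level in CPM (horizontal axis) for the 16193 tested genes, with called genes of the red blood cell lists, the clock lists and neither list marked. All 32 called red blood cell genes lie above 0, over the whole range of levels, while the 9 called clock genes lie on both sides.

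Alox15 was measured first because it checks the label. Its level was 0.825, 11.1, 5.16, 3.87 and 1.98 CPM in WT_saline 1 to 5, where CPM is a count scaled to the size of its library. It was 40.8, 39.1, 44.7, 38.4 and 41.2 CPM in KO_saline 1 to 5. The groups did not overlap, WT_saline libraries varied widely among themselves, and KO_saline libraries were close together. The means were 4.58 ± 4.00 CPM (SD, n = 5) and 40.8 ± 2.45 CPM (SD, n = 5), and the log2 fold change was 3.15 ± 0.45 (SE; edgeR quasi-likelihood test, adjusted p = 0.000583). An exact two-sided permutation test of the 5 against 5 libraries gave p = 0.00794, the smallest it can give. Without WT_saline 2, the highest of its group, the log2 fold change was 3.79. The gene therefore goes against the label, and gene-level counts do not show whether a deleted exon is missing from these transcripts. Whether the genotype labels were exchanged was not tested either. Every direction below is one between libraries labelled knockout and libraries labelled wild type. Of the 15 tested genes of lipoxygenases, leukotriene enzymes and their receptors, Alox15 was the 1 called.

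Markers of the labelled tissue were abundant. Sftpc, the surfactant gene of type 2 alveolar cells, lay between 4744 and 12491 CPM in the 10 libraries, and Scgb1a1 of club cells between 13848 and 24663 CPM. Total counts were 15601820 to 21715791 in WT_saline and 21120826 to 23305645 in KO_saline, so the libraries labelled knockout were mostly deeper. The ribosomal transcript Rn45s took 1.47% to 3.47% of counts in WT_saline and 1.21% to 2.26% in KO_saline. Libraries also differed in tissue from outside the lung: Adipoq, a hormone gene of fat, stood at 85.1 and 103 CPM in WT_saline 2 and 4 and at 27.7 and 25.8 CPM in KO_saline 2 and 4, but at 0.308 to 9.66 CPM in the other 6. None of 16 tested fat genes was called, and their summed level ranged from 391 to 2428 CPM in WT_saline and from 423 to 1019 CPM in KO_saline. WT_saline 4 also had the highest level of its group for all 16 tested T cell genes and for 12 of 16 B and plasma cell genes. Whether depth, Rn45s or these tissues had a part in the differences was not tested beyond the fits given below that leave libraries out.

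Genes of red blood cells were the largest named group that differed. Of 71 listed genes 66 were tested, and 32 were called, all higher in the libraries labelled knockout, against 0.593% of all genes called higher. The log2 fold change was above 0 for 59 of the 66, with a median of 0.83, where the median of all tested genes was -0.03. At 33 of the 66 every KO_saline library was above every WT_saline library, against 1.91% of all genes, and at none was every KO_saline library below, against 1.14%. In bulk RNA, more cells of a type and more RNA per cell cannot be told apart. Without the libraries rich in fat (WT_saline 2 and 4 and 3 of the HDM groups) the number of red blood cell genes called was 34, and it stayed between 29 and 34 when any 1 saline library was left out.

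The globin chains carry oxygen in red cells. Hba-a1, an alpha chain, stood at 1917, 2012, 2044, 1794 and 4348 CPM in WT_saline 1 to 5 and at 6973, 14085, 7711, 7802 and 9605 CPM in KO_saline 1 to 5. WT_saline 5 and KO_saline 2 were the highest of their groups, and even WT_saline 5 stayed below the lowest KO_saline library. The log2 fold change of Hba-a1 was 1.93 ± 0.26 (adjusted p = 0.000249). All 6 listed globins were called without overlap, from 1.58 for Hba-a2 to 2.06 for Hbb-bs, the latter at 142 to 535 CPM in WT_saline and 701 to 1773 CPM in KO_saline. Together the 6 took 0.431% to 1.02% of all counts in WT_saline and 1.57% to 3.24% in KO_saline. These genes are near copies of each other: Hbb-b2 and Hbb-bt carry identical values in all 20 libraries, so the chains are uncertain one by one.

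**Figure D2:**
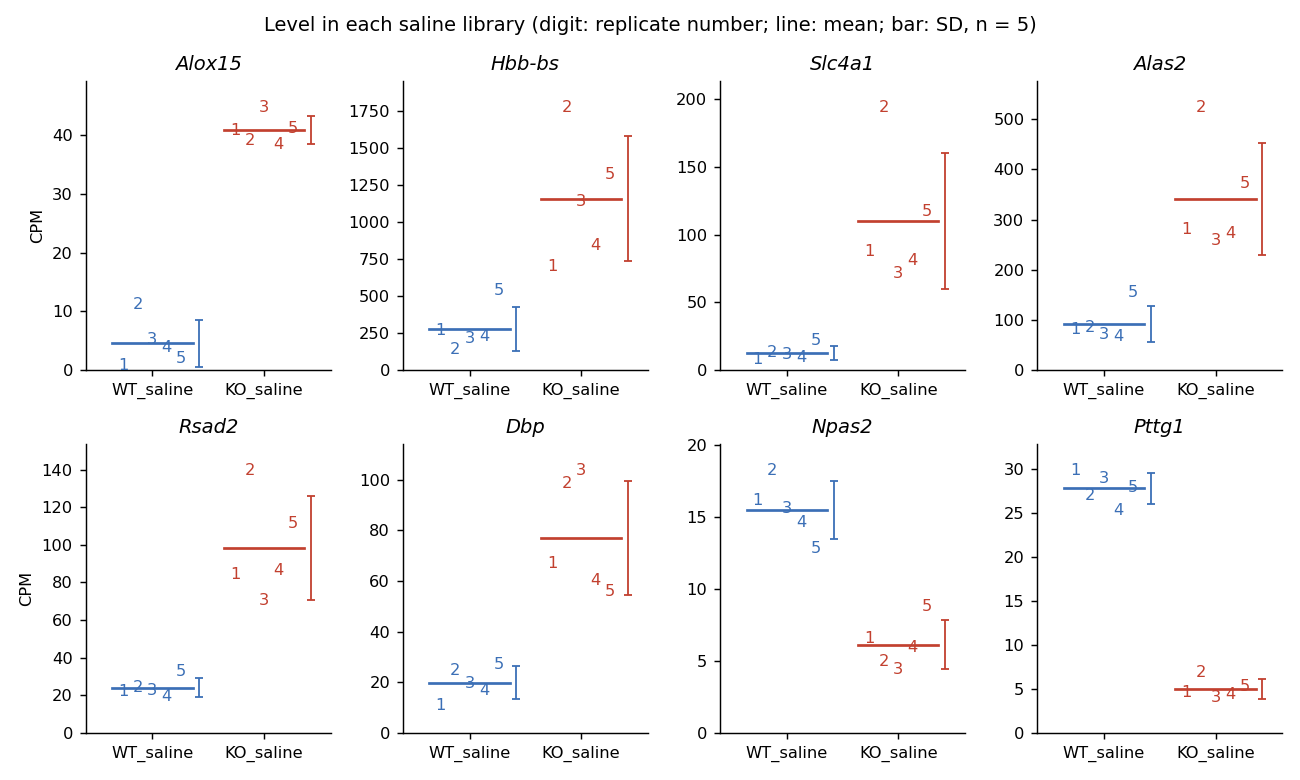
Level in CPM (vertical axes, each from 0) of 8 genes in the 5 WT_saline and 5 KO_saline libraries, with digits for the replicate number, a line for the mean and a bar for the SD. The groups do not overlap for any of the 8, and KO_saline 2 is the highest library for Hbb-bs, Slc4a1, Alas2 and Rsad2.

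Haem, the iron-bearing group of haemoglobin, is made in steps that other cells use as well. Alas2, the red cell form of the enzyme of the first step, stood at 80.5, 85.4, 71.8, 66.7 and 154 CPM in WT_saline 1 to 5 and at 279, 524, 259, 273 and 372 CPM in KO_saline 1 to 5. Its log2 fold change was 1.90 ± 0.23 (adjusted p = 8.35e-05). Slc25a37, which brings iron into mitochondria of red cell precursors, was higher by 1.15 ± 0.15 on the log2 scale, and Fech, which inserts the iron, by 0.99 ± 0.13. These were the 3 called of 14 tested genes of haem synthesis and iron uptake, whose median was 0.17. Alad, the enzyme of the next step, found in all cells, had a log2 fold change of 0.34 ± 0.08 (adjusted p = 0.055), and DESeq2 called it (0.00979). Tfrc, the receptor through which dividing precursors take up iron, was 77.6 to 104 CPM in WT_saline and 83.9 to 107 CPM in KO_saline, a log2 fold change of 0.10 ± 0.14 (adjusted p = 0.76).

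Among proteins of the red cell membrane and its skeleton, 12 of 20 tested genes were called, with a median of 1.18. Slc4a1, the anion exchanger band 3, stood at 8.0, 12.7, 11.3, 9.29 and 21.8 CPM in WT_saline 1 to 5 and at 87.3, 194, 71.1, 80.7 and 117 CPM in KO_saline 1 to 5. The same libraries as for the globins, WT_saline 5 and KO_saline 2, were the highest of their groups, and the groups were far apart. The log2 fold change was 3.12 ± 0.30 (adjusted p = 6.94e-06). Epb4.2, which ties band 3 to the skeleton, was higher by 3.00 ± 0.28 on the log2 scale. The blood group genes Kel, Rhd and Rhag, all under 5 CPM, were higher by 3.62 ± 0.47, 3.07 ± 0.35 and 2.74 ± 0.39. Add2, a skeleton protein, and Tspo2, a membrane protein of red cell precursors, were higher by 3.03 ± 0.40 and 3.17 ± 0.50, also from levels below 1 CPM in every WT_saline library.

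Some membrane genes were not called. Ank1 and Sptb, which build the skeleton in red cells and in muscle, had log2 fold changes of 1.19 ± 0.61 (adjusted p = 0.35) and 0.69 ± 0.46 (adjusted p = 0.461). WT_saline 2 stood apart for both, with 13.9 CPM of Ank1 where the other WT_saline libraries had 3.91 to 4.97 CPM. That library also had the highest summed level of 12 tested heart muscle genes, 3154 CPM against 259 to 882 CPM in the rest of its group. In the fit without the 5 fat-rich libraries, which include WT_saline 2, Ank1 and Sptb were called at 1.81 (adjusted p = 0.0015) and 1.05 (adjusted p = 0.0332). Neither was called when any 1 saline library, WT_saline 2 among them, was left out. The lowest adjusted p in those fits was 0.298 for Ank1 and 0.391 for Sptb. Whether muscle tissue had a part was not tested. The blood group gene Ermap was called at 1.18 ± 0.20 (adjusted p = 0.00312) although WT_saline 1, at 3.62 CPM, was just above KO_saline 3, at 3.56 CPM, and it was not called in the 10 saline libraries alone (adjusted p = 0.0622). Epb4.1, the skeleton protein 4.1, was higher by 0.97 ± 0.14. Tspan33, a tetraspanin of red cell precursors, was called at 1.06 ± 0.24 (adjusted p = 0.0366), but not when WT_saline 1, 2, 3 or 5 or KO_saline 2, 4 or 5 was left out (adjusted p 0.0652 to 0.168) or in the 10 libraries alone (adjusted p = 0.181).

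Among enzymes and maturation factors of red cells, 10 of 20 tested genes were called, with a median of 0.83. Bpgm, which makes the bisphosphoglycerate that loosens oxygen from haemoglobin, stood at 54.5, 64.4, 53.3, 53.1 and 92.7 CPM in WT_saline 1 to 5 and at 146, 262, 153, 149 and 196 CPM in KO_saline 1 to 5. Every KO_saline library was above every WT_saline library, and the log2 fold change was 1.51 ± 0.18 (adjusted p = 6.38e-05). Trim10 and Trim58, ubiquitin ligases of late red cell precursors, were higher by 2.99 ± 0.30 and 2.78 ± 0.32 on the log2 scale. The ubiquitin enzymes Ube2l6, Ube2o and Mkrn1 were higher by 1.34 ± 0.13, 1.02 ± 0.15 and 0.87 ± 0.11. Car2 (carbonic anhydrase) and Isg20 (an exonuclease) were higher by 0.99 ± 0.15 and 0.76 ± 0.12. Hemgn, a nuclear protein of blood precursors, was called at 2.31 ± 0.53 (adjusted p = 0.0436), but not when WT_saline 1, 2, 3 or 5 or KO_saline 2 or 5 was left out (adjusted p 0.058 to 0.184), nor by limma voom (0.0832), in the 10 libraries alone (0.0957) or without the fat-rich libraries (0.0895). Bnip3l, a receptor for the removal of mitochondria that many tissues express, was 144 to 204 CPM in WT_saline and 204 to 246 CPM in KO_saline (0.40 ± 0.11, adjusted p = 0.115), and DESeq2 called it (adjusted p = 0.022). Prdx2 and Pklr, a peroxidase and a pyruvate kinase of red cells, had log2 fold changes of 0.41 ± 0.12 (adjusted p = 0.139) and 0.40 ± 0.29 (adjusted p = 0.507).

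Among transcription factors that drive the red cell programme and the erythropoietin receptor, 1 of 6 tested genes, Gata1, was called. Its level was 0.363 to 0.585 CPM in WT_saline and 0.718 to 1.41 CPM in KO_saline, without overlap, and the log2 fold change was 1.17 ± 0.24 (adjusted p = 0.0132). Without KO_saline 2, its highest library, the adjusted p was 0.0644, in the 10 saline libraries alone it was 0.0965, and without the fat-rich libraries it was 0.174. Nfe2, which activates globin genes, lay without overlap at 4.32 to 6.97 and 7.13 to 12.1 CPM (0.77 ± 0.21, adjusted p = 0.108), and DESeq2 called it (adjusted p = 0.0244). Epor, the erythropoietin receptor of early precursors, and Tal1, which endothelium also expresses, had log2 fold changes of 0.41 ± 0.26 (adjusted p = 0.434) and 0.21 ± 0.15 (adjusted p = 0.48). Lmo2, another of the 6, had a median of 48.6 CPM in WT_saline and 45.5 CPM in KO_saline and was not called.

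**Figure D3:**
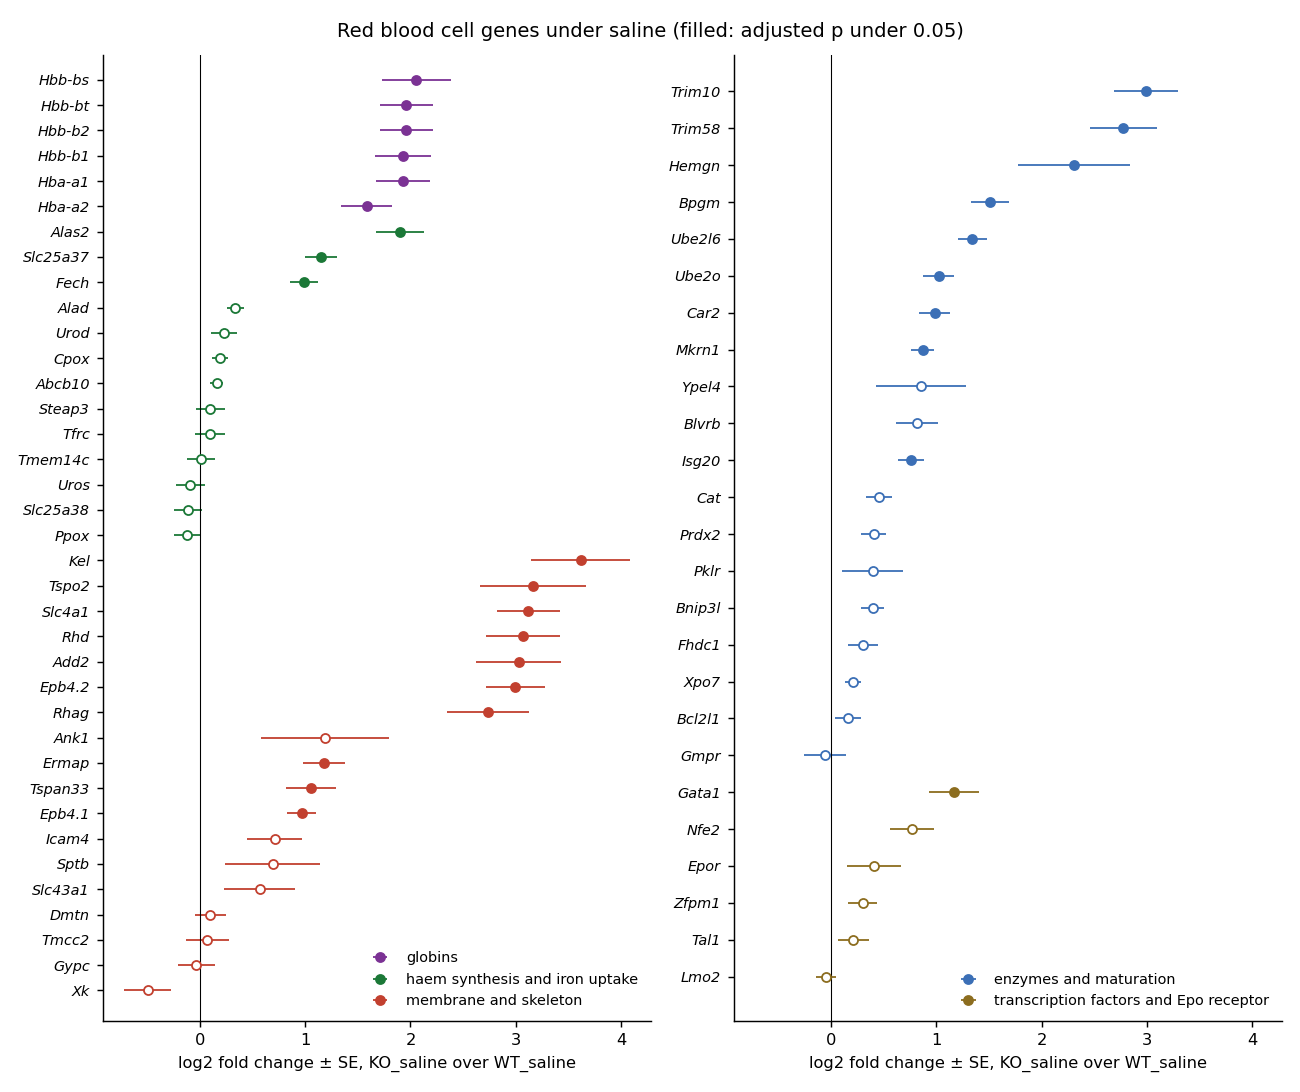
Log2 fold change of KO_saline over WT_saline (horizontal axes) with its SE for 62 of the 66 tested red blood cell genes, by role, filled where the adjusted p is under 0.05. All 6 globins are filled, and the haem synthesis genes below Fech are all open symbols.

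Within the KO_saline group, KO_saline 2 was the highest library for 52 of the 66 tested red blood cell genes, among them all 32 called, and KO_saline 3 was the lowest for 31 and the highest for 6. WT_saline 5 was the highest of its group for 31 of the 66. How often these libraries were highest or lowest over all tested genes was not counted. Genes of other blood cells were read beside them. Of 18 tested platelet and megakaryocyte genes none was called, with a median of 0.43 and a summed level of 967 to 1413 CPM in WT_saline and 1197 to 1365 CPM in KO_saline. The log2 fold change was above 0 for all 18, as it was for 7251 of the 16193 genes tested, and the groups overlapped at each of the 18. Neutrophil genes had 2 of 12 called, both higher, against 0.593% of all genes, with a median of 0.82. The log2 fold change was above 0 for 10 of the 12. Their summed level overlapped between the groups, at 207 to 649 CPM in WT_saline and 332 to 510 CPM in KO_saline. At 6 of the 12 every KO_saline library was above every WT_saline library, against 1.91% of all genes. Their part in the red blood cell result was not tested.

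The neutrophil genes called were Retnlg, a resistin-like molecule, and Lcn2, which binds iron carriers of bacteria and is also made by epithelium. Retnlg stood at 4.70, 3.78, 4.15, 3.54 and 3.72 CPM in WT_saline 1 to 5 and at 7.75, 11.6, 8.98, 8.74 and 8.52 CPM in KO_saline 1 to 5, a log2 fold change of 1.2 ± 0.16 (adjusted p = 0.000261). Lcn2 was 46.1 to 75.6 CPM in WT_saline and 109 to 194 CPM in KO_saline (1.22 ± 0.28, adjusted p = 0.0459). Its call was lost when any of the 5 WT_saline libraries or KO_saline 2, 3 or 5 was left out (adjusted p 0.0528 to 0.162), and in the fit without the fat-rich libraries (0.11). S100a8 and S100a9, the calcium-binding proteins that fill neutrophils, did not overlap between the groups but missed the threshold: S100a9 was 13.2 to 24.4 CPM in WT_saline and 46.8 to 78.6 CPM in KO_saline (1.66 ± 0.40, adjusted p = 0.0648), and S100a8 had a log2 fold change of 1.68 ± 0.45 (adjusted p = 0.105). In the 10 saline libraries alone both were called (adjusted p = 0.00248 for S100a9 and 0.00396 for S100a8), as they were by DESeq2 (0.00174 and 0.00636), and S100a9 was also called by limma voom (0.0286). Ltf and Cxcr2, other neutrophil genes, were not called, and their KO_saline means were 0.28 and 0.92 times their WT_saline means. The medians in WT_saline and KO_saline were 44.5 and 39.3 CPM for Ltf and 33.4 and 36.9 CPM for Cxcr2.

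The motif AGATAA, read on either strand (TTATCT on the other), is one form of the site bound by GATA factors. It was looked for in the 250 bases before the start of each gene in RefSeq's promoters of assembly GRCm38.p6, where 22 of the 32 called red blood cell genes have an entry. The motif was in 7 of their 27 promoters (25.9%), in 8 of 40 promoters (20%) of the red blood cell genes not called, and in 9.99% of all 32851 promoters. CACGTG, the E-box bound by Arntl with Clock or Npas2, was in 3 of 10 promoters (30%) of called clock genes, in 3 of 12 (25%) of those not called and in 6.02% of all. Alternative promoters of a gene were counted separately, and the 3 belong to Bhlhe41 and Tef alone. TTANGTAA, the D-box bound by Dbp, Tef, Hlf and Nfil3, was in 0 of 10 and 1 of 12 and in 2.06% of all. None of the motifs contains another, though matches can share end bases. These are matches of letters in short windows and not measured sites. The upstream bases of 2 red cell genes and 2 clock genes that were called show such matches, with every match to the 3 motifs in capitals, in the direction of transcription.
Alas2 (chrX:150547167-150547416, plus strand): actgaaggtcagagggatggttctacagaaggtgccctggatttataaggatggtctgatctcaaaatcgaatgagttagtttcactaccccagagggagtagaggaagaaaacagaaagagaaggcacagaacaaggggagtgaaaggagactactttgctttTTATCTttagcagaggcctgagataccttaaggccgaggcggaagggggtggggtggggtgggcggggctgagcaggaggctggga
Trim10 (chr17:36869324-36869573, plus strand): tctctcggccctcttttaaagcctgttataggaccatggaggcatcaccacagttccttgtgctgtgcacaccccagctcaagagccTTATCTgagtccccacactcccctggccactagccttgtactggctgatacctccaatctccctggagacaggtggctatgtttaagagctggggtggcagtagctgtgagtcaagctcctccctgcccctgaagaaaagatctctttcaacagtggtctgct
Bhlhe41 (chr6:145865421-145865670, minus strand): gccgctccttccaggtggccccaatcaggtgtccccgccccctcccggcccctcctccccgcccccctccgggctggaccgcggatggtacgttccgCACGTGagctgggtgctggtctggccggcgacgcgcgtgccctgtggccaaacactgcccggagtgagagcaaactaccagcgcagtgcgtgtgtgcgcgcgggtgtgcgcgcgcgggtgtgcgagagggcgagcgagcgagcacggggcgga
Tef (chr15:81802423-81802672, plus strand): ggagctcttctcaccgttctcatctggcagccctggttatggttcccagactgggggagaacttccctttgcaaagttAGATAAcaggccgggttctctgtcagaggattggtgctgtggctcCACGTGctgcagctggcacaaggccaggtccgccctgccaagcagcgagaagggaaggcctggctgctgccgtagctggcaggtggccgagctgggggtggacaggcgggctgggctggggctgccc

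Clock genes were the other named group. Of 21 tested genes 9 were called, against 0.908% of all genes. In the libraries labelled knockout 6 were higher, against 0.593%, and 3 were lower, against 0.315%. The groups did not overlap at 10 of the 21, against 3.06% of all genes. The called activators were lower and the called nuclear receptors higher, while of 5 called output factors 4 were higher and 1, Nfil3, was lower. The number called was 7 to 10 when any 1 saline library was left out.

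Dbp stood at 10.8, 24.6, 19.6, 16.6 and 27.2 CPM in WT_saline 1 to 5 and at 66.8, 98.4, 104, 60.3 and 55.8 CPM in KO_saline 1 to 5. The lowest KO_saline library was above the highest WT_saline library, and the log2 fold change was 1.96 ± 0.24 (adjusted p = 8.7e-05). Tef, a factor of the same family, was 108 to 151 CPM in WT_saline and 184 to 292 CPM in KO_saline (0.90 ± 0.15, adjusted p = 0.00182). Hlf, the other member of that family, was 22.5 to 34.7 CPM and 36.6 to 46.9 CPM, without overlap, but was not called (0.52 ± 0.22, adjusted p = 0.274). Nfil3, which represses at the sites the family activates, was lower: 9.14 to 12.8 CPM in WT_saline and 3.49 to 8.26 CPM in KO_saline (-0.97 ± 0.22, adjusted p = 0.0352). The Nfil3 call was lost when WT_saline 2, 3, 4 or 5 or KO_saline 1, 2 or 3 was left out (adjusted p 0.05005 to 0.119) in the 10 libraries alone (0.11) and without the fat-rich libraries (0.173).

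The activators Npas2 and Arntl were lower. Npas2 stood at 16.1, 18.2, 15.6, 14.6 and 12.8 CPM in WT_saline 1 to 5 and at 6.56, 4.98, 4.40, 5.91 and 8.75 CPM in KO_saline 1 to 5 (-1.34 ± 0.17, adjusted p = 0.000176). Arntl was 24.5 to 33.4 CPM in WT_saline and 9.81 to 18.6 CPM in KO_saline (-0.97 ± 0.15, adjusted p = 0.00142). KO_saline 3 was the lowest library and KO_saline 5 the highest of the KO_saline group for both genes. Clock, the partner of Arntl, was 116 to 215 CPM and 103 to 136 CPM (-0.33 ± 0.13, adjusted p = 0.245).

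The nuclear receptors Nr1d1 and Nr1d2, which repress Arntl and Npas2, were higher. Nr1d1 was 87.9 to 142 CPM in WT_saline and 207 to 282 CPM in KO_saline (0.94 ± 0.17, adjusted p = 0.00468), although without the fat-rich libraries its adjusted p was 0.0579. Nr1d2 was 71.6 to 108 CPM and 142 to 177 CPM (0.75 ± 0.13, adjusted p = 0.00212). Their counterpart Rora, which activates at the same sites, was not called. Bhlhe41 and Bhlhe40, repressors that compete for E-boxes, were higher by 0.95 ± 0.14 (adjusted p = 0.00053) and 0.63 ± 0.13 (adjusted p = 0.0181). The Bhlhe40 call was lost without KO_saline 2 or KO_saline 3 (adjusted p 0.089 to 0.106) and in the 10 libraries alone (0.0899).

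None of the 6 Per, Cry and Ciart repressors was called. Per3 was 26.5 to 41.8 CPM in WT_saline and 40.2 to 64.3 CPM in KO_saline (0.66 ± 0.17, adjusted p = 0.0822), and Per2 had a log2 fold change of 0.71 ± 0.20 (adjusted p = 0.127). DESeq2 called both (adjusted p 0.0122 and 0.0352). Per1, which also answers to glucocorticoids and other acute signals, was 64.4 to 135 CPM and 54.5 to 117 CPM (-0.27 ± 0.22, adjusted p = 0.543). Cry1 and Cry2 had log2 fold changes of -0.17 ± 0.12 and 0.30 ± 0.14, and Ciart was not called. Of the output genes Usp2 and Wee1, neither was called (0.16 ± 0.30 and 0.40 ± 0.13). None of 16 tested glucocorticoid response genes and none of 15 immediate early and heat shock genes was called, with medians of -0.07 and 0.05.

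**Figure D4:**
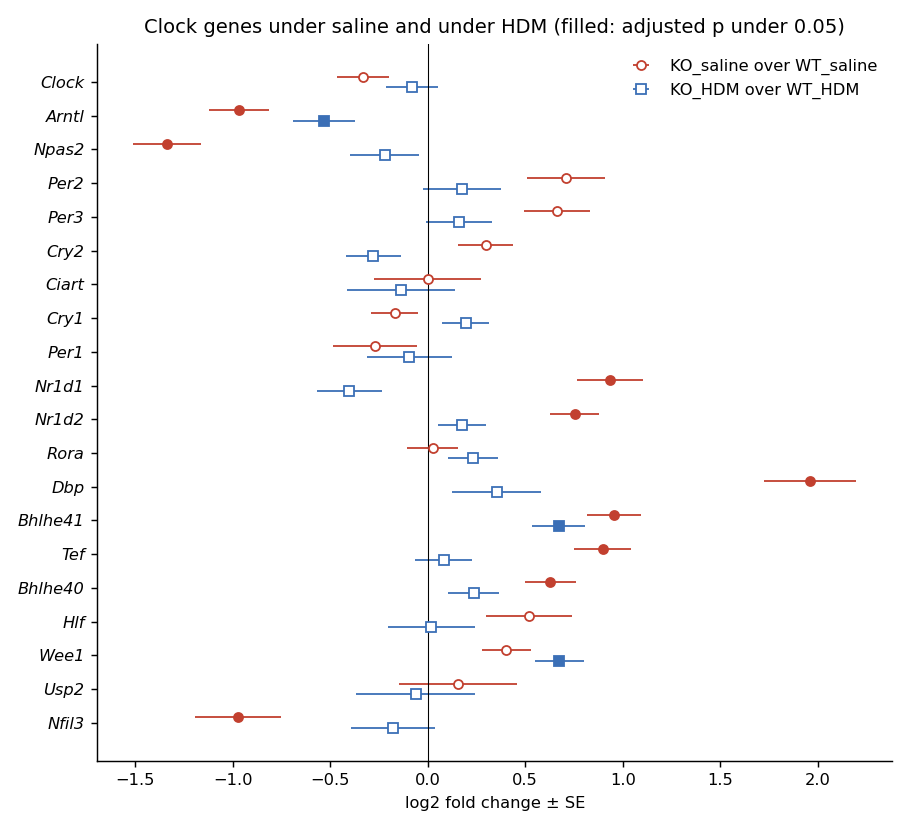
Log2 fold change with its SE (horizontal axis) of 20 of the 21 tested clock genes between the labels under saline (circles) and under HDM (squares), filled where the adjusted p is under 0.05. Under saline Npas2, Arntl and Nfil3 lie below 0 and Dbp farthest above it, and the HDM values lie nearer to 0 for all 9 genes called under saline.

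Outside these groups, the largest rises in libraries labelled knockout, by the rule for named genes, were Apol11b and Rsad2. Apol11b, an apolipoprotein L family member, stood at 3.93, 2.75, 3.35, 3.77 and 3.02 CPM in WT_saline 1 to 5 and at 25.0, 79.6, 21.6, 25.4 and 37.7 CPM in KO_saline 1 to 5 (3.49 ± 0.33, adjusted p = 5.89e-06). Rsad2, the antiviral enzyme viperin, stood at 22.1, 24, 22.3, 19.4 and 32.4 CPM and at 84.4, 140, 70.2, 86.3 and 111 CPM (2.03 ± 0.18, adjusted p = 3.47e-06). For both, KO_saline 2 was the highest and KO_saline 3 the lowest library of the group, as for most called red blood cell genes. Rsad2 was the 1 gene called of 24 tested interferon response genes, whose median was -0.09. KO_saline 2 was the highest KO_saline library for 37 of the 64 genes called higher outside the red blood cell list (57.8%). Those 64 include Hbq1b, a globin gene that the list left out, and the same share over all tested genes was not counted.

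Among the genes that were lower, Pttg1 (securin, which holds sister chromatids together until they part) had the smallest p. It stood at 29.9, 27.0, 28.9, 25.3 and 27.9 CPM in WT_saline 1 to 5 and at 4.64, 6.90, 4.05, 4.35 and 5.29 CPM in KO_saline 1 to 5. The groups were far apart and the libraries of each were close together (-2.46 ± 0.14, adjusted p = 3.04e-09). Mki67, a protein of the surface of mitotic chromosomes, stood at 42.9, 48.2, 46.4, 88.4 and 41.8 CPM and at 15.3, 20.4, 13.0, 15.2 and 13.7 CPM (-1.79 ± 0.26, adjusted p = 0.000577). WT_saline 4 was the highest library, and the groups did not overlap. Both belong to the 22 tested cell cycle genes, of which 2 were called lower, against 0.315% of all genes. The log2 fold change was above 0 for 2 of the 22, with a median of -0.22. Their summed level, which includes Pttg1 and Mki67, was 374 to 549 CPM in WT_saline and 296 to 351 CPM in KO_saline, without overlap. The other 20 were not called, and Top2a, a topoisomerase of dividing cells, was 20.8 to 50.9 CPM in WT_saline and 14.8 to 28.4 CPM in KO_saline (-0.43 ± 0.28, adjusted p = 0.46).

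Slfn8, a Schlafen family member of immune cells, was 15.3 to 43.1 CPM in WT_saline and 4.62 to 7.80 CPM in KO_saline (-2.05 ± 0.25, adjusted p = 9.54e-05). Slfn14, a family member that cleaves RNA in platelet and red cell precursors, went the other way, at 0.0635 to 0.725 CPM and 2.24 to 6.72 CPM (3.37 ± 0.50, adjusted p = 0.000583). None of the other 7 tested Schlafen genes was called. Further genes that were lower without overlap were Edaradd, an adaptor of ectodysplasin signalling (-1.32 ± 0.21), Unc45b, a chaperone of muscle myosin (-1.06 ± 0.15), the transcription factor Sp6 (-1.08 ± 0.20), Entpd4, a nucleotidase of the Golgi and lysosomes (-1.01 ± 0.16), the protease Adamts9 (-0.83 ± 0.16) and Dgke, a lipid kinase (-0.75 ± 0.12). Their adjusted p-values ran from 0.000296 for Unc45b to 0.00775 for Adamts9, and each call held when any 1 saline library was left out.

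The other 3 of the 15 largest falls that are not clock genes were less stable. Erdr1 was 19.0 to 75.5 CPM in WT_saline and 2.87 to 8.56 CPM in KO_saline (-3.12 ± 0.66, adjusted p = 0.0269), and its call was lost without WT_saline 1, 2 or 3 or KO_saline 1, 2, 3 or 5 (adjusted p 0.052 to 0.1001) and without the fat-rich libraries (0.0514). The protease Adamts12 (-0.99 ± 0.20, adjusted p = 0.0155) lost its call without WT_saline 1 or 2 or KO_saline 2, 3 or 5 (0.051 to 0.0841), with limma voom (0.0509) and without the fat-rich libraries (0.0521). Rab44, a small GTPase of mast cells and other granular cells (-0.93 ± 0.20, adjusted p = 0.027), lost its call without WT_saline 1 or 3 or KO_saline 1, 3, 4 or 5 (0.0552 to 0.104), with limma voom (0.0701) and in the 10 libraries alone (0.0731).

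Markers of the other lung and immune cell types gave few calls. Clca3, a secreted product of mucous cells, was the 1 called of 15 tested goblet cell and mucus genes, at 68.3, 67.8, 1.33, 131 and 34.0 CPM in WT_saline 1 to 5 and 3.88, 3.10, 1.23, 1.70 and 5.70 CPM in KO_saline 1 to 5. WT_saline 3 lay among the KO_saline libraries, so the groups overlapped. The log2 fold change was -4.28 ± 0.75 (adjusted p = 0.00442), and the call was lost with limma voom (adjusted p = 0.259), in the 10 libraries alone (0.119) and without the fat-rich libraries (0.0667). Trem2, a lipid receptor of macrophages, was called at 1.1 ± 0.21 (adjusted p = 0.00694, but 0.177 with limma voom and 0.113 without the fat-rich libraries). It was the 1 called of 16 tested genes of monocytes and interstitial macrophages, of which 7 were above 0, with a median of -0.05. None of 16 tested alveolar macrophage genes was called, with a median of 0.08. Mmp12, the elastase of macrophages, was called at 1.26 ± 0.27 (adjusted p = 0.0279), lost without WT_saline 2, 3 or 4 or KO_saline 2, 3 or 5 (0.0556 to 0.101), with limma voom (0.0705) and without the fat-rich libraries (0.206). It was the 1 called of 20 tested matrix genes, of which 6 were above 0, with a median of -0.22. Gpx1 and Gclm, of glutathione metabolism, were higher by 0.71 ± 0.14 (adjusted p = 0.0086, but 0.0781 in the 10 libraries alone) and 0.49 ± 0.10 (adjusted p = 0.0225). The Gclm call was lost without KO_saline 2 or 3 (0.0898 to 0.105), in the 10 libraries alone (0.0781) and without the fat-rich libraries (0.0521). No gene was called in the lists of alveolar type 1 (14 tested), alveolar type 2 (14), club (13), ciliated (16), endothelial (19), T (16), B and plasma (16) and NK (11) cells, or of eosinophils, mast cells and basophils (12).

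Chromosome 11, which carries Alox15, held more than its share of called genes. Of 1314 tested genes placed there by RefSeq, 38 (2.89%) were called, against 0.736% on the other chromosomes together, and 33 of the 38 are not in the red blood cell lists. Next came chromosome 6 with 1.53%. The red blood cell lists left out Hbq1b, a globin gene placed between Hba-a1 and Hba-a2, and Slfn14, and both are among the 33. Along the order of tested genes, 4 of the 100 nearest to Alox15, counted as 50 on either side, were called. These 4 were chosen for their place and named after their values were seen. Xaf1, an interferon-induced partner of an apoptosis inhibitor, stood at 23.5, 15.8, 19.8, 15.9 and 15.7 CPM in WT_saline 1 to 5 and at 68.3, 59.6, 72.6, 64.8 and 64.6 CPM in KO_saline 1 to 5 (1.86 ± 0.13, adjusted p = 3.92e-08). The inflammasome sensor Nlrp1a and its neighbouring pseudogene Nlrp1c-ps were lower, by -0.91 ± 0.18 (adjusted p = 0.00938, but 0.104 in the 10 libraries alone) and -3.59 ± 0.41 (adjusted p = 4.19e-05) on the log2 scale, and reads may have been shared between such copies. Kctd11 was called at -0.39 ± 0.09 (adjusted p = 0.0398), lost without WT_saline 2, 3 or 5 or any KO_saline library (0.0534 to 0.174), without a low-count filter (0.0717) in the 10 libraries alone (0.135) and without the fat-rich libraries (0.116). Farther away, 4% of 150 genes at 51 to 200 places before Alox15 and 3.33% of 150 genes at those places after it were called, and beyond 200 places after it 2.42% of 578. Before it, 2.67% of 300 genes beyond 200 and up to 500 places and none of 35 beyond 500 were called. Alox15, Pttg1, Slfn8, Slfn14, Unc45b, Sp6, Dgke, Nr1d1, Slc4a1, Hba-a1 and Hba-a2 all lie on this chromosome.

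The same labels were compared in the lungs given HDM, whose libraries are separate from the saline libraries and share only the estimate of spread in the fit. Of the 147 genes called under saline, 128 had the same sign there, and 66 (44.9%) were called in the same direction, where 6.67% of all genes were called, 4.79% higher and 1.88% lower. None was called in the opposite direction. Genes are not independent of each other, and over these 147 the log2 fold changes of both comparisons correlated at r = 0.82 (Pearson) and 0.82 (Spearman). The median difference in the saline direction was smaller under HDM, 0.48 against 1.12 on the log2 scale, as can be so for any genes chosen for their values under saline.

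Red blood cell genes repeated most often, with 25 of 32 (78.1%) called under HDM, and a median over all 66 tested of 0.33 there. Slc4a1 was higher by 2.55 on the log2 scale (adjusted p = 5.36e-05). Globins took 0.208% to 0.349% of counts in WT_HDM and 0.474% to 0.814% in KO_HDM, and all 6 were called. Of the called genes on chromosome 11 outside the red blood cell lists, 17 of 33 (51.5%) were called under HDM, with Pttg1 at -1.60 (adjusted p = 5.06e-07), Xaf1 at 2.1 (5.59e-09) and Nlrp1c-ps at -4.22 (1.64e-06). Slfn14 was among these 17 and Hbq1b was not. Outside both lists and chromosome 11 the number called was 22 of 74 (29.7%). Apol11b and Rsad2 were higher by 2.96 (adjusted p = 4.24e-05) and 1.52 (4.98e-05). Alox15 was higher by 1.15 (adjusted p = 0.107), between 7.92 and 29.8 CPM in WT_HDM and between 35.0 and 45.5 CPM in KO_HDM, and the difference from saline was not called (adjusted p = 0.106).

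Of the 9 clock genes called under saline, 2 were called under HDM, Arntl at -0.53 (adjusted p = 0.0497) and Bhlhe41 at 0.67 (0.00529). A direct test between treatments contains the saline difference by which the 147 were chosen, and that choice can raise the share called. In this test, 18 of the 147 genes differed between both treatments, against 1.24% of all genes. Dbp was among them: it stood at 46.5 ± 12.4 CPM (SD, n = 5) in WT_HDM and 59.5 ± 7.77 CPM (SD, n = 5) in KO_HDM, a log2 fold change of 0.35 ± 0.23 against 1.96 ± 0.24 under saline (edgeR interaction adjusted p = 0.0195). Nr1d1 (-0.40 under HDM, interaction adjusted p = 0.00976) and Npas2 (-0.22, 0.0284) differed likewise. So did 2 red blood cell genes, Rhd (0.94, 0.0438) and Gata1 (-0.84, 0.00809). The number with an interaction was 6 to 26 when 1 saline library was left out, and 3 without the fat-rich libraries: it was 7 without WT_saline 1, 9 without WT_saline 2 or KO_saline 5 and 6 without KO_saline 2 or 3.

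**Figure D5:**
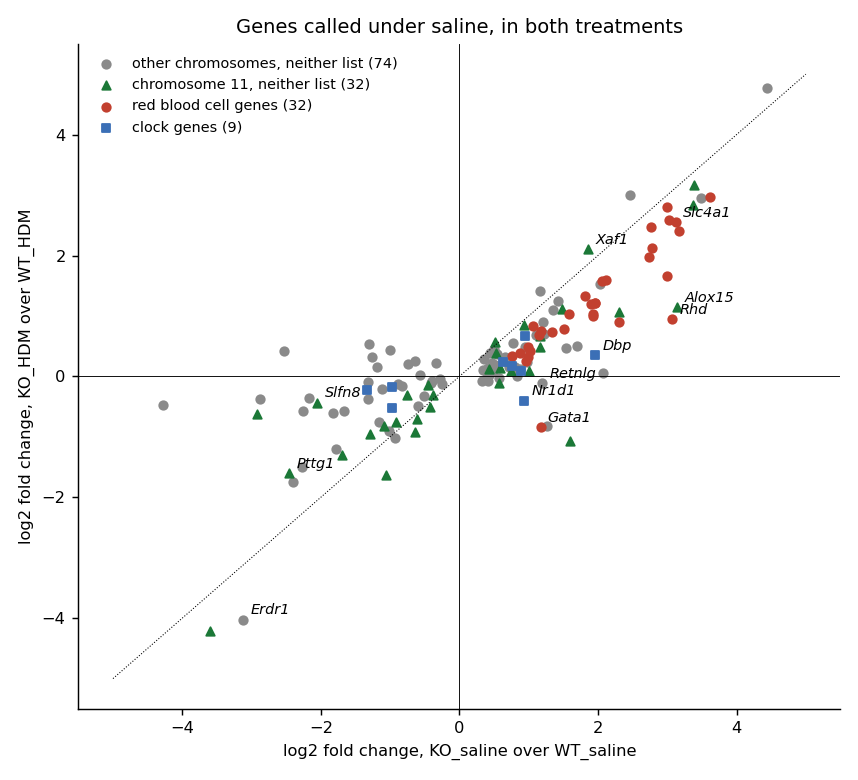
Log2 fold change between the labels under HDM (vertical axis) against that under saline (horizontal axis) for the 147 genes called under saline, by group, with a dotted line where both are equal. Red blood cell genes lie near the line or below it, Xaf1 just above it, and Dbp, Nr1d1, Gata1 and Slfn8 near 0 or past it under HDM.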

How the data were processed

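Poly(A) RNA was selected and sequenced strand-specifically, per the labels' protocols. Per the submitters' processing notes, Bowtie2 2.1.0 and RSEM 1.2.15 were used; the notes name the human build hg38 although the table lists mouse symbols. The build is therefore unknown, and genes are given no coordinates apart from those of the promoter windows, which are from RefSeq, assembly GRCm38.p6. The authors deposited expected counts (estimated counts) per gene and library, not normalized, in which RSEM splits reads among similar genes.

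Expected counts were rounded, filtered by group with filterByExpr, scaled with TMM factors and fitted in edgeR 4.0.16 (R 4.3.3) with a mean for each of the 4 groups over all 20 libraries (16 residual degrees of freedom). P-values come from its robust quasi-likelihood test, adjusted over all genes tested by Benjamini-Hochberg. Log2 fold changes are given ± SE, and all adjusted p-values are from this test unless another is named. Alternatives were DESeq2 1.42.0 and its size factors, limma 3.58.1 voom, other filters, the 10 saline libraries alone, a replicate block and leaving out each library, and, chosen after seeing the data, leaving out the 5 libraries with 50 CPM or more of Adipoq. The procedure was tested on simulated counts.

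The gene lists, the comparison and its members were chosen with earlier results of these data known. In the goblet cell list the symbol Clca1 was replaced by the older Clca3 after values were seen. Genes named are Alox15, the 15 largest rises and 15 largest falls (called, no overlap, a mean log2 CPM over the saline libraries not below 1, without predicted genes or receptor segments), members of the red blood cell and clock lists (5 of which are counted but not reported here), and up to 4 called members of other lists. S100a8, S100a9, Ltf, Cxcr2, Top2a and the genes beside Alox15 were named after their values were seen. Promoter sequences and gene order are from RefSeq, assembly GRCm38.p6. The saline libraries held 15601820 to 23305645 counts, so 1 CPM is at least 15.6 counts there, and over all 20 libraries, of which the smallest held 12573094, about 12.6 counts or more. This bounds the precision of low genes. P-values of the fit set the difference between group means against the spread between libraries, estimated over all 4 groups.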

Additional observations from a re-analysis of the deposited data

Results flagged for a closer look

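Among 89 of the named genes, 178 groups of 5 libraries were examined for 1 library far from the others, and 18 were found. About 5% of groups would be flagged by chance for independent, normally distributed values. Genes that move together are not independent, and Hbb-b2 and Hbb-bt carry identical values, so the 18 cannot be set against that share. In 6 of the 18 the library was WT_saline 5, with 4348 CPM of Hba-a1, 4223 CPM of Hbb-b1, 391 CPM each of Hbb-bt and Hbb-b2, 154 CPM of Alas2 and 92.7 CPM of Bpgm, each the highest of its group. KO_saline 2 stood above its group for Apol11b (79.6 CPM) and Add2 (4.42 CPM). WT_saline 4 stood above its group for Mki67 (88.4 CPM), Top2a (50.9 CPM) and Cry1 (19.2 CPM), and WT_saline 2 for Sptb (27.2 CPM) and Ank1 (13.9 CPM). WT_saline 1 was far above the others for Clock (215 CPM) and Ermap (3.62 CPM) and far below them for Gclm (22.8 CPM). KO_saline 3 was the highest for Hlf (46.9 CPM) and KO_saline 4 the lowest for Kctd11 (17.7 CPM).

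The difference between the labels itself differed between treatments, by the interaction term of the edgeR fit, for 10 of the named genes called under saline. The interaction, HDM minus saline on the log2 scale, was negative for Rhd (-2.12), Mmp12 (-2.08), Gata1 (-2.01), Dbp (-1.61), Nr1d1 (-1.34) and Retnlg (-1.31), which were higher in the libraries labelled knockout under saline. It was positive for Slfn8 (1.61), Adamts12 (1.43), Npas2 (1.12) and Pttg1 (0.86), which were lower there. These genes were chosen for saline differences that the interaction also contains, and that choice favours such signs. Mmp12 was at 778 ± 332 CPM (SD, n = 5) in WT_HDM and 440 ± 107 CPM (SD, n = 5) in KO_HDM. Retnlg was at 10.1 ± 2.80 CPM (SD, n = 5) in WT_HDM and 9.35 ± 0.63 CPM (SD, n = 5) in KO_HDM.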

How the results depend on the processing

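The number of genes called was 327 with DESeq2 (179 higher, 148 lower; 63 on chromosome 11, 52 with an interaction), and 146 of the first 147 kept their call and direction. Genes called lower were 28 in the 10 saline libraries alone and 30 without the fat-rich libraries. Those with an interaction were 11 with limma voom, 28 with the replicate block and 3 without the fat-rich libraries. Over the 10 fits that left out 1 saline library, 102 to 180 genes were called, 30 to 86 of them lower, 6 to 26 with an interaction, and Alox15 ranged from 2.92 to 3.79 on the log2 scale. Of the 147, 52 lost their call in at least 1 of these fits and none reversed. Replicate numbers were tested as pairs: deviations of same-numbered libraries correlated at 0.00448 to 0.560, above 0.1 in 4 of 5 pairs and with 3 of 5 highest for their own number, a hint from the data. Not every pair passed 0.1 and the labels name no shared source, so the numbers were not taken to pair the libraries. The replicate block gave 160 called genes (100 higher, 60 lower), 32 of them red blood cell genes. Uncalled genes near 0 changed sign: Ciart was -0.0139 with at least 1 CPM in 5 libraries, -0.00394 in the 10 libraries, -0.0155 with the block and -0.0993 without the fat-rich libraries, where Rora was -0.079. Without 1 library Ciart ranged from -0.254 to 0.186 and Rora from -0.0685 to 0.0974. Of these 89 named genes, 12 lost their call in the 10 saline libraries alone, 12 without the fat-rich libraries, 6 with limma voom, 5 with the replicate block (Erdr1, Hemgn, Kctd11, Lcn2 and Mmp12, adjusted p 0.0518 to 0.0858) and 1 without a filter, and 7 gained one with DESeq2. Depth limits genes under 1 CPM most, such as Kel, Rhag and Gata1 in WT_saline.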
